A study of Homo sapiens with 10 samples.

Results

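The genes described here act in the G2 phase and in mitosis, the part of the cell cycle in which replicated chromosomes condense, attach to the spindle and are parted into daughter cells. They are 42 named genes, chosen by name, with earlier results of these data known, and matched to the Ensembl identifiers of the count table. All 42 were among its 14054 genes, and all 42 were among the 10968 genes that passed the filter on low counts. RNA was measured in MRC5, a human lung fibroblast line. The fibroblasts received culture medium taken from A549, an epithelial line from a human lung adenocarcinoma. In 5 of the 10 libraries the A549 donors of the medium had been stretched (stretch medium, libraries 2, 4, 6, 8 and 10). In the other 5 they had not (static medium, libraries 1, 3, 5, 7 and 9). For the exposure, the sample descriptions give 24 hours and the series design 6 hours, and which is right is not known here. All libraries come from this 1 line, and no medium that A549 cells had not conditioned is among the groups, so any effect shared by both media cannot be seen. In bulk RNA such as this, fewer dividing cells and less of a transcript per dividing cell cannot be told apart.

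Cells enter mitosis when the kinase CDK1, bound to B-type cyclins, is freed of its inhibitory phosphates. Aurora and polo kinases then act with it to build the spindle and to correct faulty attachments, and the anaphase-promoting complex, with CDC20, ends mitosis by marking cyclin B and securin for destruction. Cultured fibroblasts divide unless they are starved, crowded or senescent, and most of these genes are transcribed late in each cycle and kept low in resting cells. That shared timing runs through a short promoter element, the cell cycle genes homology region (CHR), whose core reads TTTGAA. In resting cells it is bound by a repressor complex of retinoblastoma family proteins, and in G2 by B-MYB and FOXM1 with the same MuvB core. CCAAT boxes, bound by NF-Y, often lie upstream of it.

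This element was common in the members' promoters. RefSeq promoter windows of build GRCh38.p14, from 250 bases before to 50 bases after each annotated start, were matched by symbol for 35 of the 42 members (not for TTK, UBE2C, AURKA, BIRC5, HMGB2, CDCA2 and TPX2). TTTGAA, searched on both strands, was in a window of 26 of the 35, or 74.3%. The share was 13.7% of the 8620 tested genes with a window and 18.2% of all 27305 genes with one. The first base of a TTTGAA lay within 60 bases of a start in 22 members (62.9%), against 4.55% of tested genes. A second form of the core, TTCGAA, was in 2 members (5.71%) and in 2.47% of tested genes. At least 1 CCAAT box was found in 27 members (77.1%) and in 43.5% of tested genes, and 2 or more in 20 members (57.1%) and 16.3% of tested genes. Letters typical of E2F sites, TTCCCGC or TTGGCGC, were in 7 of the 35 members and in 17.9% of tested genes. A match describes the letters in a window and does not show that a factor binds there.

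**Figure D1:**
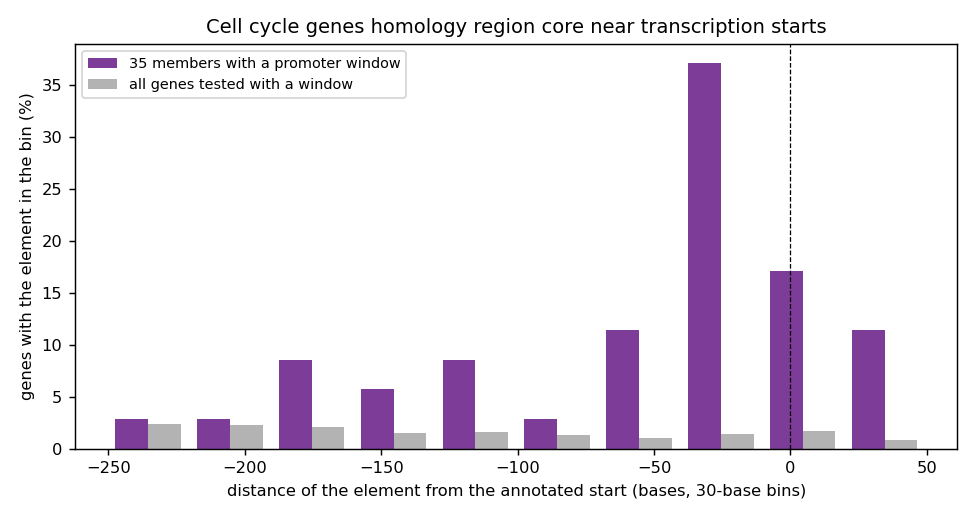
Share of genes (%) with a TTTGAA on either strand whose first base falls in each 30-base bin, by distance in bases from the annotated start (dashed line), for the 35 members with a promoter window (purple) and for all 8620 tested genes with one (grey). The members' highest bar, at 40 to 11 bases before the start, stands at 37.1%, against 1.45% of tested genes.

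The stretches from 150 bases before to 30 bases after the start are shown for 5 members, to let the spacing of the elements be read. CCNB2 carries the textbook arrangement, NUSAP1 and NDC80 were lower with stretch medium before adjustment, and GTSE1 and MKI67 were higher. Each is written 5′ to 3′ on the gene's own strand. Capitals mark the CHR core TTTGAA with its second form TTCGAA, and the CCAAT box. On the opposite strand these read TTCAAA for the core and ATTGG for the box.
CCNB2 (chr15:59104996-59105175, plus strand): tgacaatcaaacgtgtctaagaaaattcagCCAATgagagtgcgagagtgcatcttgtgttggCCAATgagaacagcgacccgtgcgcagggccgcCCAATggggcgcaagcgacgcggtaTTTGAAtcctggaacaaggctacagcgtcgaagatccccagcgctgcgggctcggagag
NUSAP1 (chr15:41332731-41332910, plus strand): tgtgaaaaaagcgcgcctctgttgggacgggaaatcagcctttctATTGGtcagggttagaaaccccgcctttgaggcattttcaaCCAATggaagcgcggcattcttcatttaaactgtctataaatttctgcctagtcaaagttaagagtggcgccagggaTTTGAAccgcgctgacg
NDC80 (chr18:2571407-2571586, plus strand): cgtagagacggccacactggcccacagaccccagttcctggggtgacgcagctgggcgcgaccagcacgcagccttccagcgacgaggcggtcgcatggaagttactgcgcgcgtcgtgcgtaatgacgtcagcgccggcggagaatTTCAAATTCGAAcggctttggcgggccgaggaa
GTSE1 (chr22:46296720-46296899, plus strand): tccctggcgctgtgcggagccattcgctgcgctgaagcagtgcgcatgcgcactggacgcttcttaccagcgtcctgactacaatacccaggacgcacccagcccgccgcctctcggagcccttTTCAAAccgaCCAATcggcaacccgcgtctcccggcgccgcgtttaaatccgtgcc
MKI67 (chr10:128126394-128126573, minus strand): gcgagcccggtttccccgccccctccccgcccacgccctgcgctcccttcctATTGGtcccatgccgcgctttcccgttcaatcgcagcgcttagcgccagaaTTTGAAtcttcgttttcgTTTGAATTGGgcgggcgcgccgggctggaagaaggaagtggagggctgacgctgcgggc
In CCNB2, 3 CCAAT boxes at even spacing precede 1 CHR core. In NDC80 both forms of the core adjoin each other and no CCAAT box is in the stretch. In MKI67 the second CHR core shares letters with a reversed CCAAT box. Both directions of difference are thus found among promoters with the element. The median log2 fold change, stretch minus static, was -0.074 for the 26 members with TTTGAA, of which 10 were above 0 and 16 below. It was 0.070 for the 9 members with a window but without it, of which 5 were above 0 and 4 below. These medians were not tested against each other. Members without a window are in neither set. Of those, TTK, AURKA and BIRC5 were above 0, and UBE2C, HMGB2, CDCA2 and TPX2 were below. HMGB2, CDCA2 and TPX2 were also among the members lower with stretch medium before adjustment.

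Libraries held 4231653 to 8455073 counts, and totals did not differ between groups beyond their spread (exact permutation test, two-sided p = 0.444). Counts of a member ran from 4 to 3821 per library, and 3 members had a library under 20 counts. Levels below are in CPM, which are counts divided by the library's size after scaling by the trimmed mean of M-values, with values of stretch libraries 2, 4, 6, 8 and 10 and of static libraries 1, 3, 5, 7 and 9 given in that order. They are compared between libraries, not between genes. The line label was checked against 15 fibroblast markers, whose summed level was 19290 to 23930 CPM with stretch medium and 20660 to 22480 CPM with static medium. Of 21 markers of A549 and lung epithelium, 13 were in the table, with a summed level of 100.8 to 116 CPM with stretch medium and 93.8 to 127 CPM with static medium. Of the 8 of these that passed the filter, 5 log2 fold changes were above 0 and 3 below, with a median of 0.040. Of the 8, 1 had an unadjusted p under 0.05, against 16.4% of all tested genes. It was KRT18, a keratin of simple epithelia singled out after its values were seen, and higher with stretch medium (log2 fold change 0.40, edgeR unadjusted p = 0.0385). The epithelial cadherin CDH1 was at 0 to 3 counts with stretch medium and 0 to 4 counts with static medium. It was 1 of 4 markers, of the 13 in the table, with at most 10 counts in every library. Others were higher, such as CLDN1, at 275 to 449 counts with stretch medium and 270 to 643 counts with static medium. KRT19 was at 56 to 109 counts with stretch medium and 53 to 109 counts with static medium. The part of such RNA in the results was not tested.

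No member differed between media at an adjusted p under 0.05, where 0% of all tested genes did. The test was edgeR's quasi-likelihood test with Benjamini-Hochberg adjustment over 10968 genes. Without stretch 4, 39 genes passed, 0 of them members. Over all 10 libraries, the smallest adjusted p was 0.145 among members and 0.0840 among all genes. At an unadjusted p under 0.05 there were 8 members, 2 higher and 6 lower with stretch medium. These are 19.0% of the 42, and the same was true of 16.4% of all tested genes, 8.08% higher and 8.37% lower. The median log2 fold change of the members was -0.074, with 18 above 0 and 24 below. Over all tested genes it was 0.00040, with 49.9% below 0. DESeq2 called 0 of the 40 members to which it gave an adjusted p (all but CDC25C and HMMR), where it called 2.84% of the genes to which it gave an adjusted p, and limma-voom called 0 members and 0.00912% of genes. In DESeq2 too, 8 members had an unadjusted p under 0.05, and 16.9% of genes did. Its smallest adjusted p for a member was 0.0614, for GTSE1. The median half-width of the members' 95% intervals was 0.31 on the log2 scale, and the intervals of 20 members lay within 0.5 of 0 on both sides.

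**Figure D2:**
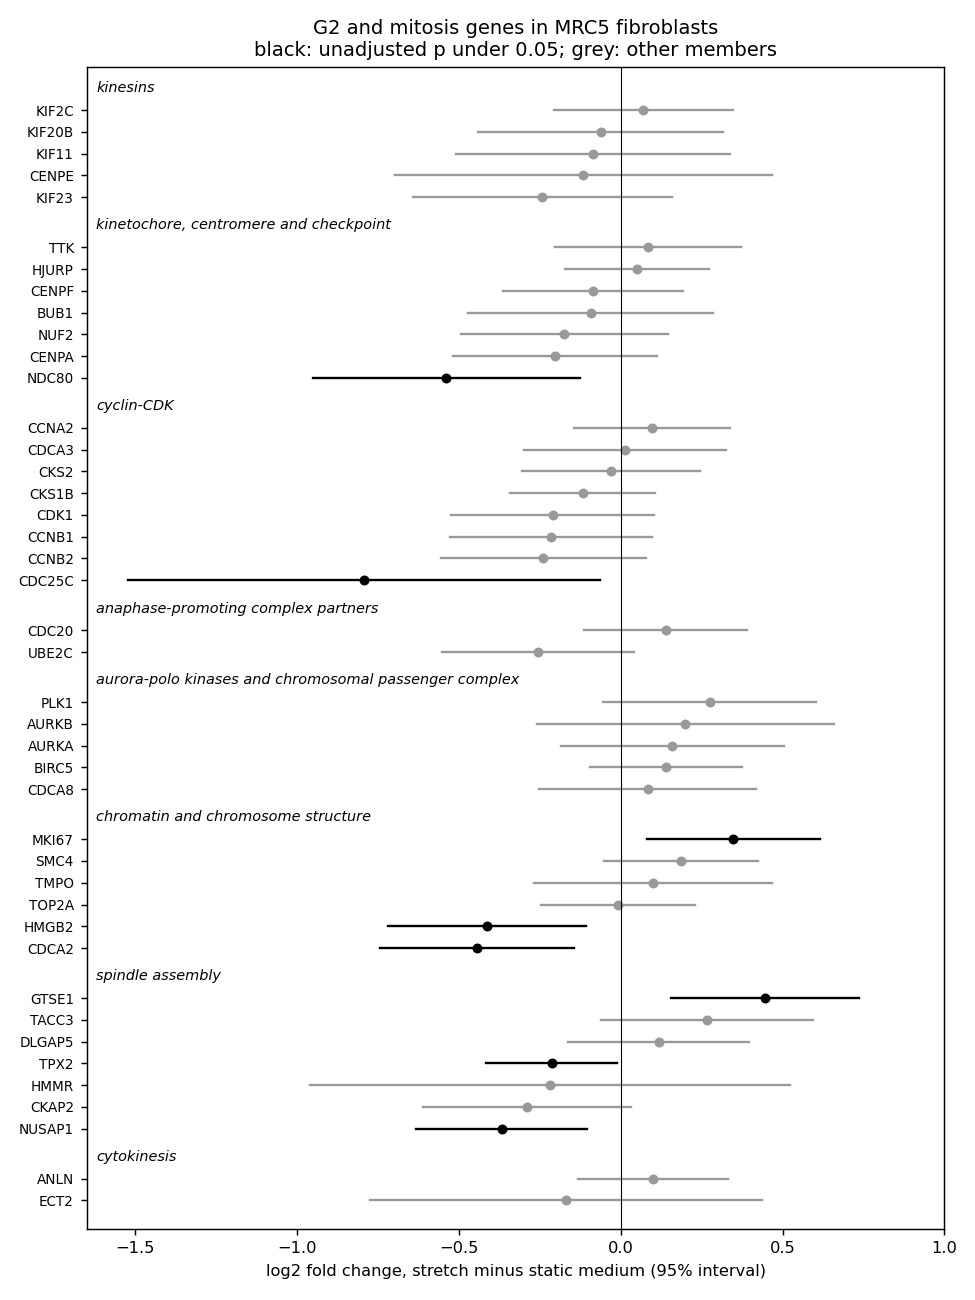
Log2 fold change, stretch minus static medium, with its 95% interval from edgeR for the 42 members (rows, by functional subgroup), black where the unadjusted p was under 0.05 and grey elsewhere. Points lie on both sides of 0, from -0.79 for CDC25C to 0.44 for GTSE1, and the 5 aurora-polo and chromosomal passenger genes are all above 0.

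Among the cyclin-CDK genes, which drive entry into mitosis, 2 of 8 log2 fold changes were above 0 and 6 below, with a median of -0.16. CDC25C, the phosphatase that removes the inhibitory phosphates from CDK1 (build GRCh38, as for all gene positions here, chromosome 5, 138285265 to 138338355), was at 0.905, 2.69, 0.825, 2.33 and 1.41 CPM with stretch medium, against 3.74, 2.36, 3.997, 2.22 and 2.27 CPM with static medium. Stretch 2, 6 and 10 were below every static library, while stretch 4 and 8 lay among them. With 4 to 26 counts per library, its log2 fold change was -0.79 ± 0.35 (here and below with its standard error), with a 95% interval of -1.52 to -0.064 (edgeR adjusted p = 0.270). The gene overlaps FAM53C, and whether counting used strand is not given, so its counts are uncertain. CDK1, the mitotic kinase itself, was at 70.4, 77.9, 45.7, 76.9 and 84.2 CPM with stretch medium, against 92.8, 66.7, 85.3, 85.1 and 80.8 CPM with static medium. Stretch 6 was far below the others and the groups overlapped, and the interval of -0.52 to 0.10 spanned 0. Without stretch 6 its log2 fold change was -0.083, against -0.21 over 10 libraries. CCNB1, a B-type cyclin that activates CDK1, was at 116, 162, 124, 159 and 127 CPM with stretch medium, against 158, 115, 159.7, 213 and 154 CPM with static medium, with the highest value in static 7 and the lowest in static 3. Its log2 fold change was -0.22 ± 0.15 (edgeR adjusted p = 0.481). CCNB2, the other B-type cyclin of somatic cells, lay beside it at -0.24 ± 0.15, also with its highest level in static 7, at 262 CPM. Without static 7, CCNB1 was at -0.088 and CCNB2 at -0.064. CCNA2, cyclin A, which acts from S phase to early mitosis, had the highest estimate of this subgroup. It was at 61.3, 56.0, 64.8, 69.8 and 53.1 CPM with stretch medium, against 53.4, 51.1, 57.4, 63.6 and 60.1 CPM with static medium, overlapping throughout, and its 95% interval spanned -0.14 to 0.34. The CDK-binding adaptors CKS1B and CKS2 were at -0.12 ± 0.11 and -0.031 ± 0.13, and CDCA3, which promotes mitotic entry, was at 0.013 ± 0.15. CCNA2 overlaps EXOSC9, CDCA3 overlaps GNB3 and CKS1B has pseudogenes in the table, which leaves their counts uncertain too.

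The genes of the aurora and polo kinases and of the chromosomal passenger complex were the one subgroup in which every log2 fold change was above 0, yet each interval spanned 0. The log2 fold changes of these 5 ran from 0.083 to 0.27, with a median of 0.16. PLK1, the polo kinase of spindle poles and kinetochores, was at 91.4, 60.4, 105, 71.7 and 76.6 CPM with stretch medium, against 56.9, 62.7, 76.3, 55.3 and 83.4 CPM with static medium. Stretch 6 and 2 were the highest and stretch 4 lay among the lower static libraries. Its log2 fold change was 0.27 ± 0.16, and its 95% interval spanned -0.053 to 0.60 (edgeR adjusted p = 0.393). Without stretch 6 it was 0.16. AURKB, the kinase of the passenger complex that corrects attachments, was at 5.21, 5.003, 7.15, 7.11 and 6.43 CPM with stretch medium, against 7.03, 6.84, 4.92, 3.66 and 4.87 CPM with static medium, on 23 to 58 counts per library. Static 7 was the lowest and the ranges overlapped, with a log2 fold change of 0.20 ± 0.22 over 10 libraries and 0.081 without static 7. CDCA8 encodes borealin, a passenger complex subunit, and was at 19.2, 15.2, 18.4, 13.7 and 14.1 CPM with stretch medium, against 16.3, 12.5, 16.8, 12.8 and 18.0 CPM with static medium. Here too the ranges overlapped, and its 95% interval spanned -0.25 to 0.42. AURKA, the spindle pole kinase, and BIRC5, which encodes the passenger subunit survivin, were at 0.16 ± 0.16 and 0.14 ± 0.11. With 1 library left out, CDCA8 ran over 0.013 to 0.15, and no member of this subgroup went below 0. A pseudogene of AURKA, AURKAP1, is also in the table, which leaves the counts of AURKA uncertain. AURKAP1 was at 19 to 49 counts with stretch medium and 23 to 62 counts with static medium. AURKA was at 61 to 125 counts over all libraries.

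In the chromatin and chromosome structure subgroup, 3 members were above 0 and 3 below, and 3 had an unadjusted p under 0.05, in both directions, where 16.4% of all tested genes had one. MKI67, the proliferation marker that coats mitotic chromosomes (chromosome 10, 128096659 to 128126385), was at 64.0, 51.8, 53.1, 61.3 and 58.7 CPM with stretch medium, against 49.9, 55.4, 43.7, 37.6 and 40.3 CPM with static medium. Every stretch library was above 4 of the 5 static libraries, and static 3 was above stretch 4 and 6. The log2 fold change was 0.35 ± 0.13, and its 95% interval spanned 0.081 to 0.62 (edgeR adjusted p = 0.196). CDCA2 recruits a phosphatase to chromatin at mitotic exit and was at 19.5, 16.4, 18.6, 16.0 and 18.3 CPM with stretch medium, against 25.7, 18.0, 25.2, 25.2 and 26.6 CPM with static medium. Of the static libraries, static 3 alone lay within the stretch range, and the other 4 were above every stretch library. Its log2 fold change was -0.44 ± 0.14, and its 95% interval spanned -0.74 to -0.14 (edgeR adjusted p = 0.152). HMGB2, a DNA-bending protein of dividing cells (chromosome 4, 173331695 to 173335125), was at 253, 294, 237, 259 and 276 CPM with stretch medium, against 334, 303, 259, 499 and 361 CPM with static medium. Static 7 was the highest, and static 5 lay within the stretch range. It gave -0.41 ± 0.14 over 10 libraries (edgeR adjusted p = 0.179) and -0.25 without static 7, a change of more than 1.5 times in the estimate. TOP2A, the topoisomerase that untangles sister chromatids, was at 191, 164, 198, 194 and 229.9 CPM with stretch medium, against 221, 209, 204, 183 and 167 CPM with static medium. No order between groups can be read from these values, and the interval was -0.25 to 0.23. The condensin subunit SMC4 and the lamina-associated protein gene TMPO were at 0.19 ± 0.11 and 0.10 ± 0.17. SMC4 overlaps IFT80 and TRIM59.

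The spindle assembly genes held both the highest of the 42 estimates and the one member whose groups did not overlap, in opposite directions. GTSE1, a microtubule-associated protein of G2 that restrains the kinesin encoded by KIF2C (chromosome 22, 46296741 to 46330810), was at 51.8, 37.0, 41.6, 47.8 and 39.0 CPM with stretch medium, against 32.8, 30.5, 39.97, 27.0 and 29.4 CPM with static medium. Stretch 2, 6 and 8 were above the highest static library, static 5, and stretch 4 and 10 were above the other 4. The log2 fold change was 0.44 ± 0.14, and its 95% interval spanned 0.15 to 0.74 (edgeR adjusted p = 0.145). TPX2, which targets and activates Aurora A on spindle microtubules (chromosome 20, 31739271 to 31801805), was at 146, 153, 129, 142 and 138 CPM with stretch medium, against 171, 155, 157, 179 and 157 CPM with static medium. Every stretch library was below every static library, the one case of such separation among the 42 members. Over all tested genes, the groups did not overlap for 3.72%, 1.74% higher and 1.98% lower. The difference was small, at -0.21 ± 0.095 with a 95% interval of -0.41 to -0.013 (edgeR adjusted p = 0.277). NUSAP1, which bundles microtubules around chromosomes (chromosome 15, 41332694 to 41381050), was at 35.1, 37.7, 40.5, 41.9 and 42 CPM with stretch medium, against 52.8, 52.6, 54.3, 38.0 and 57.3 CPM with static medium. Static 7 stood within the stretch range and the other static libraries stood above it. Its log2 fold change was -0.37 ± 0.13 (edgeR adjusted p = 0.169). HMMR, a spindle protein first known as a hyaluronan receptor, was at 2.72, 3.27, 1.10, 1.16 and 4.22 CPM with stretch medium, against 1.76, 3.30, 2.77, 3.002 and 2.76 CPM with static medium, a wide spread on 8 to 28 counts per library. Stretch 6 and 8 were the lowest and stretch 10 the highest, and the interval was -0.96 to 0.52. Its log2 fold change was -0.22 ± 0.35, close to 0 without stretch 6 at -0.0077, and -0.50 without stretch 10. TACC3, which stabilises spindle fibres, was at 0.27 ± 0.16, DLGAP5, a stabiliser of kinetochore fibres, at 0.12 ± 0.13 and the microtubule-associated CKAP2 at -0.29 ± 0.15.

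**Figure D3:**
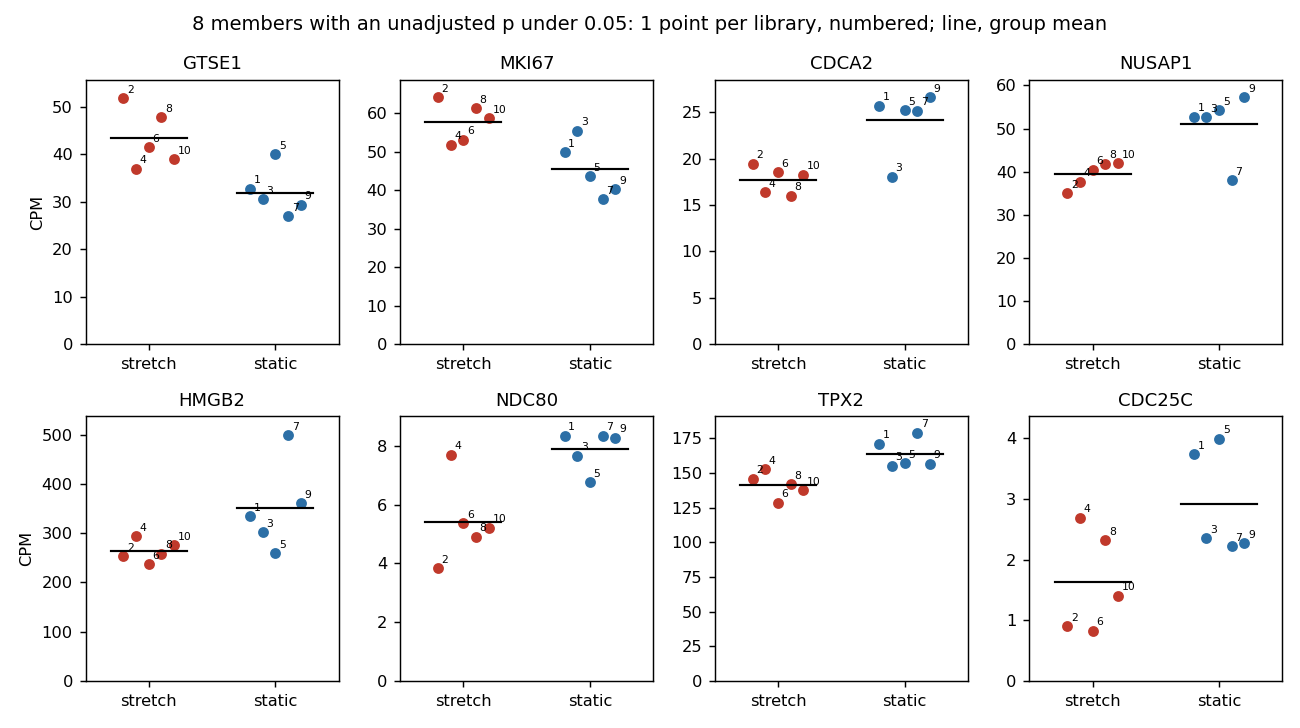
CPM in each library (points, numbered by library) with the group mean (line) for the 8 members with an unadjusted p under 0.05, stretch medium left (red) and static medium right (blue), each axis from 0. GTSE1 and MKI67 were higher with stretch medium, the other 6 were lower, and TPX2 alone shows no overlap between groups.

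The kinetochore is the chromosome's attachment site, and 5 of the 7 members of this subgroup were below 0, with a median of -0.093. NDC80, the outer subunit that grips microtubules (chromosome 18, 2571511 to 2616635), was at 3.85, 7.70, 5.37, 4.91 and 5.22 CPM with stretch medium, against 8.35, 7.67, 6.77, 8.35 and 8.28 CPM with static medium. Stretch 4 lay among the static libraries and the other 4 stretch libraries lay below all of them. The log2 fold change was -0.54 ± 0.20, and its 95% interval spanned -0.95 to -0.13 (edgeR adjusted p = 0.196), on 17 to 65 counts per library. NUF2, its partner in the same complex, was at -0.17 ± 0.15. TTK, the kinase that starts the spindle checkpoint, was at 34.4, 26.4, 38.1, 30.9 and 32.6 CPM with stretch medium, against 34.95, 28.0, 27.1, 35.5 and 27.9 CPM with static medium. The ranges overlapped, and the interval was -0.20 to 0.37. The checkpoint kinase BUB1 was at -0.093 ± 0.18, the large kinetochore protein CENPF at -0.086 ± 0.13, the centromeric histone CENPA at -0.20 ± 0.15 and its chaperone HJURP at 0.050 ± 0.11. Those of BUB1, CENPF and HJURP changed sign with 1 library left out. NUF2 overlaps RGS5 and CENPA overlaps SLC35F6, so reads of these pairs may have been split.

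Kinesins, the motors of the spindle, had 1 of 5 members above 0 and a median of -0.086, and all 5 intervals spanned 0. KIF23, a motor of the central spindle needed for cytokinesis, was the lowest at -0.24 ± 0.19. Its levels were 12.9, 13.7, 8.81, 10.9 and 14.47 CPM with stretch medium, against 9.23, 13.1, 18.5, 15.1 and 14.9 CPM with static medium, with the lowest value in stretch 6, close to static 1. The estimate was -0.13 without static 5 and -0.14 without stretch 6. KIF2C, a microtubule-depolymerising kinesin, was the highest at 0.070 ± 0.13. Its levels were 38.9, 38.3, 57.5, 40.8 and 40.2 CPM with stretch medium, against 43.3, 38.8, 40.3, 38.4 and 45.6 CPM with static medium, with stretch 6 above all other libraries, and without it the estimate was -0.057. With 1 library left out, the sign of 4 of the 5, all but KIF23, changed in at least 1 fit. The bipolarity motor KIF11 was at -0.086 ± 0.20, the cytokinesis motor KIF20B at -0.062 ± 0.18 and the kinetochore motor CENPE at -0.12 ± 0.28.

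The partners of the anaphase-promoting complex and the cytokinesis genes were each split in direction. UBE2C, the ubiquitin-conjugating enzyme of that complex, was at 144, 176, 167, 172 and 220.0 CPM with stretch medium, against 182, 193, 201, 287 and 184 CPM with static medium. Static 7 was by far the highest, and stretch 10 lay above the other 4 static libraries. The log2 fold change was -0.25 ± 0.14 over 10 libraries and -0.11 without static 7. CDC20, the coactivator that starts anaphase, was at 33.9, 30.4, 27.5, 30.8 and 29.7 CPM with stretch medium, against 30.6, 25.9, 29.4, 26.9 and 25.7 CPM with static medium, with stretch 2 highest and a log2 fold change of 0.14 ± 0.12. ANLN, the scaffold of the contractile ring, was at 331, 423, 384, 348 and 382 CPM with stretch medium, against 319, 308, 354, 425 and 338 CPM with static medium. ECT2, the exchange factor that positions that ring, was at 17.0, 19.6, 4.13, 14.99 and 15.1 CPM with stretch medium, against 15.4, 13.9, 18.5, 19.7 and 11.0 CPM with static medium. For ECT2, stretch 6 was far below every other library, and the log2 fold change of -0.17 ± 0.29 became 0.082 without it. ANLN overlapped throughout, at 0.099 ± 0.11.

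Between libraries, the members did not move as 1 block, and the subgroups went different ways in the same library. In static 7, the highest value of the 10 libraries was found for 11 members (26.2%, against 19.2% of tested genes). They were NDC80, CENPF, CENPA, CCNB1, CCNB2, UBE2C, HMGB2, CKAP2, TPX2, ANLN and ECT2. Static 7 also held the lowest value of 5 members (11.9%) and of 19.6% of tested genes. Over all tested genes, its shares of highest and of lowest values were each the largest of any library. Relative to each gene's mean over 10 libraries, static 7 stood at 0.27 on the log2 scale for the kinetochore subgroup, 0.26 for kinesins and 0.23 for cyclin-CDK genes, but at -0.29 for the aurora-polo subgroup. It stood at 0.37 for the cytokinesis genes and 0.25 for the partners of the anaphase-promoting complex. Chromatin genes were at 0.0085 there and spindle assembly genes at -0.032. In stretch 6, the lowest value was found for 11 members (26.2%, against 14.9% of tested genes). They were KIF23, CENPE, NUF2, BUB1, CDK1, CDC25C, CDCA3, HMGB2, HMMR, TPX2 and ECT2. Stretch 6 also held the highest value of 6 members (14.3%) and of 14.7% of tested genes. Stretch 6 stood at -0.33 for kinesins and for cyclin-CDK genes and at -0.79 for the 2 cytokinesis genes, but at 0.17 for the aurora-polo subgroup. The kinetochore subgroup was at -0.17 there, chromatin genes at -0.15, partners of the anaphase-promoting complex at -0.13 and spindle assembly genes at -0.066. These are descriptions of single libraries, and the libraries' totals, 7752333 counts in static 7 and 7441130 in stretch 6, were above the mean of their groups.

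**Figure D4:**
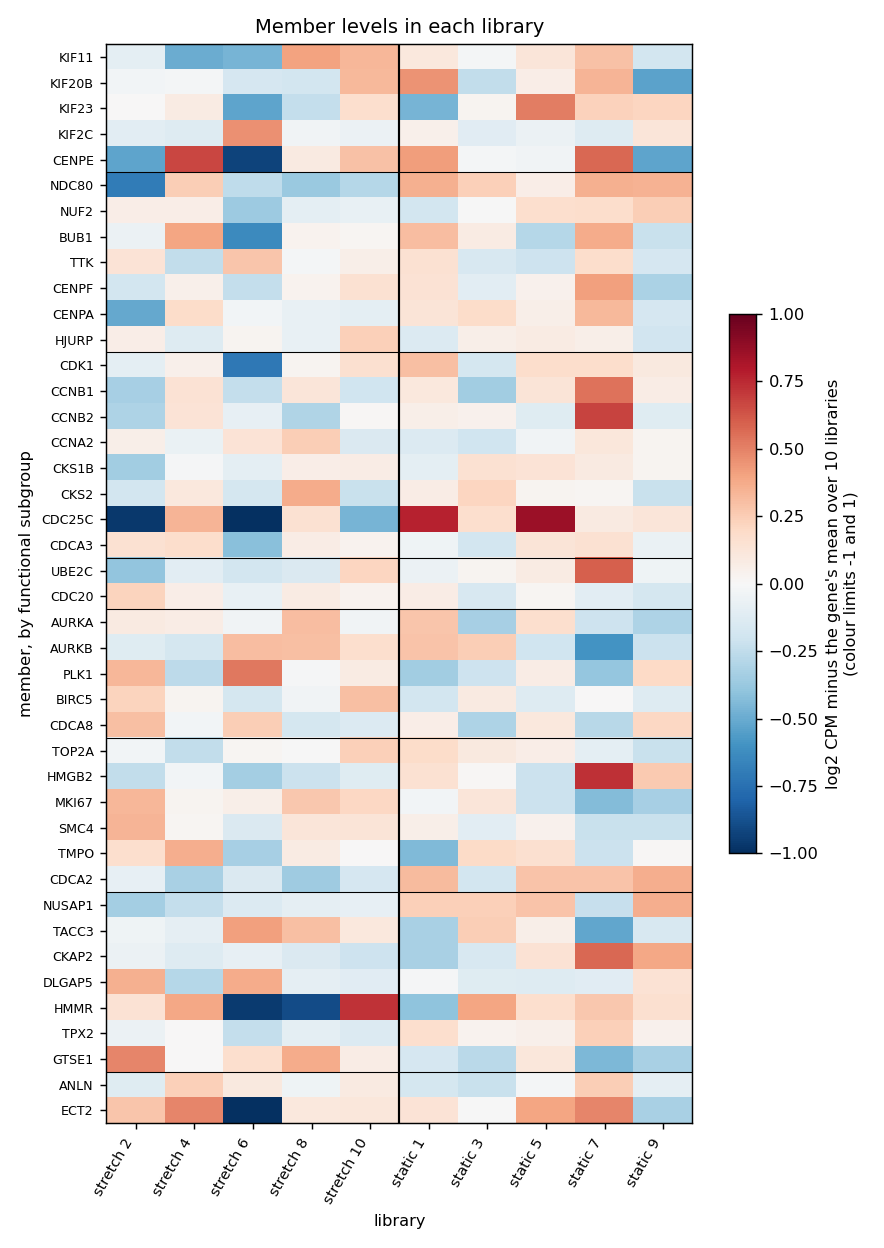
Log2 CPM of each of the 42 members (rows, by subgroup) minus its own mean over 10 libraries, in the 5 stretch libraries (left of the line) and the 5 static libraries (right), red above and blue below that mean, with colours limited to -1 and 1. Static 7 is red for CCNB1, CCNB2, UBE2C and HMGB2 and blue for AURKB and PLK1, and stretch 6 is blue for CDK1, CENPE and ECT2 and red for PLK1.

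The mean of these centred levels over the 42 members was -0.033 ± 0.093 with stretch medium and 0.034 ± 0.064 with static medium (SD, n = 5 each), which overlap at 1 SD. Single libraries lay at -0.052, 0.031, -0.19, -0.0034 and 0.043 with stretch medium and at 0.044, -0.019, 0.075, 0.11 and -0.044 with static medium. Stretch 6 was the lowest and static 7 the highest, and the rest overlapped. The median log2 fold change of the members, -0.074, became 0.017 without stretch 6 and 0.0086 without static 7. The other 8 fits that left out 1 library gave -0.13 to -0.028. The biological coefficient of variation, a measure of spread between libraries beyond counting, had a median of 15.9% over members and 16.7% over all tested genes. It was 11.6% for TPX2, the lowest, and 30.7% for ECT2, the highest.

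**Figure D5:**
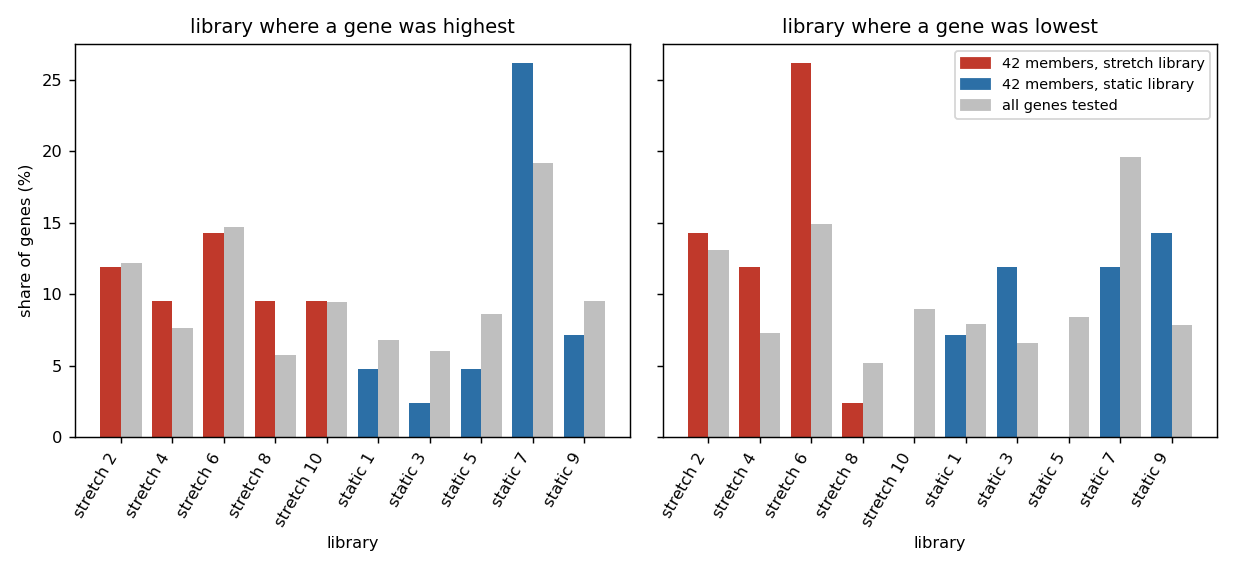
Share (%) of the 42 members (coloured bars, red for stretch and blue for static libraries) and of all tested genes (grey) whose highest level (left panel) or lowest level (right panel) fell in each library. Static 7 holds the highest value of 26.2% of members and stretch 6 the lowest of 26.2%. All genes tested also peak most often in static 7, at 19.2%, and are lowest most often there too, at 19.6%.

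Partner genes were compared by the log2 ratio of their levels within each library, in which the scaling of a library largely cancels. Of 8 pairs, 0 differed between media after Benjamini-Hochberg adjustment over the 8 exact permutation tests. The smallest p was for AURKA over its activator TPX2, at -3.33 ± 0.13 with stretch medium and -3.70 ± 0.28 with static medium (SD, n = 5 each). That difference of 0.37 had a two-sided exact p of 0.0556 and an adjusted p of 0.233. NDC80 over NUF2 was at -1.09 ± 0.38 with stretch medium and -0.71 ± 0.23 with static medium (exact p = 0.0714, adjusted 0.233). CDC20 over UBE2C was at -2.51 ± 0.29 with stretch medium and -2.89 ± 0.31 with static medium (exact p = 0.0873, adjusted 0.233). The histone CENPA over its chaperone HJURP differed by -0.26 (adjusted exact p = 0.318). The ratio of the B-type cyclins, CCNB1 over CCNB2, was -0.15 ± 0.25 with stretch medium and -0.16 ± 0.26 with static medium, a difference of 0.012. For the adaptors CKS1B over CKS2 the difference was -0.078, for the kinases AURKA over AURKB -0.031, and for AURKB over BIRC5 0.056, each within 1 SD of either group. NUF2 and CENPA overlap other genes, and AURKA and CKS1B have pseudogenes in the table. The ratios that hold these genes, among them AURKA over TPX2, are therefore uncertain.

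The rest of the pathway was read from 6 further lists of mitotic and regulatory genes. Of 134 names, 125 were tested, 48 above 0 and 77 below, and their median was -0.059 on the log2 scale. At an unadjusted p under 0.05 there were 8 higher and 17 lower, or 25 of 125, against 16.4% of all tested genes. Medians were -0.11 for 27 other motors, spindle and cytokinesis genes, -0.11 for 30 other kinetochore and checkpoint genes, and -0.12 for 12 genes of mitotic entry. They were -0.0059 for 18 condensin, cohesin and separase genes, -0.012 for 16 genes of the anaphase-promoting complex and -0.078 for 22 transcriptional regulators.

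The smallest p of each of these lists belonged to the genes that follow. ANAPC15, a subunit that helps silence the spindle checkpoint, was at 36.2, 47.5, 40.3, 53.1 and 45.6 CPM with stretch medium, against 65.5, 50, 63.3, 92.4 and 76.3 CPM with static medium, with all but static 3 above the stretch range. Its log2 fold change was -0.64 ± 0.16 (edgeR adjusted p = 0.109). WEE1, the kinase that puts the inhibitory phosphate on CDK1, was at 53.0, 57.0, 37.6, 47.6 and 39.4 CPM with stretch medium, against 65.7, 51.4, 61.5, 79.5 and 65.9 CPM with static medium. Static 3 lay within the stretch range, and the log2 fold change was -0.47 ± 0.14 (edgeR adjusted p = 0.142). Thus WEE1 and its opponent CDC25C were both at lower estimates with stretch medium, and neither passed adjustment. Of these 6 genes, NCAPH2, a subunit of condensin II, was the one with a higher estimate, at 11.2 ± 3.50 CPM with stretch medium and 6.40 ± 1.296 CPM with static medium (SD, n = 5 each), or 0.80 ± 0.23 (edgeR adjusted p = 0.130). CENPU, of the inner kinetochore, was at 13.2 ± 2.80 CPM with stretch medium and 18.9 ± 2.57 CPM with static medium (SD, n = 5 each), with no overlap between groups and a log2 fold change of -0.52 ± 0.17 (edgeR adjusted p = 0.152). The spindle protein gene CKAP2L gave -0.44 ± 0.14 (edgeR adjusted p = 0.147) and the repressor E2F7, which shuts down S-phase genes, -0.37 ± 0.13 (edgeR adjusted p = 0.177). Of the 125 genes, the groups did not overlap for CENPU and for ZWILCH, a checkpoint gene named here after its values were seen, both lower with stretch medium. Over all tested genes the share without overlap was 3.72%, 1.98% lower.

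Genes of the preceding phases were read from 2 more lists. Of 38 DNA replication genes tested, 24 were above 0 and 14 below, and their median log2 fold change was 0.13. For the G2 and mitosis genes it was -0.074, and above 0 without stretch 6 or without static 7, as given above. The difference between these medians was not tested. At an edgeR unadjusted p under 0.05 there were 7 replication genes higher and 1 lower, or 21.1%, against 16.4% of all tested genes. MCM5, a subunit of the replicative helicase, had the smallest p there, at 34.2, 34.5, 32.5, 25.5 and 27.3 CPM with stretch medium, against 24.2, 25.1, 14.1, 21.7 and 18.7 CPM with static medium, with no overlap between groups. It gave 0.57 ± 0.16 (edgeR adjusted p = 0.130). MCM5 was the 1 gene of these 38 without overlap. Over all tested genes, 1.74% were higher without overlap. Of 14 G1 cyclins, kinases and inhibitors tested, 7 were above 0 and 7 below, with a median of 0.014, and the CDK inhibitor CDKN2B had the smallest p, at -0.55 ± 0.23 (edgeR adjusted p = 0.256).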

How the data were processed

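The authors deposited 1 table of unscaled whole counts, with Ensembl genes in rows and libraries in columns. Columns were matched to samples by the number in each sample title. Per the labels' protocols, Trizol was used for the RNA and an Ion AmpliSeq kit, which amplifies chosen targets by PCR, for the libraries, so limits from counts hold counting error alone. The submitters' processing notes name fastp 0.20.1, Salmon 1.9 and build hg38/GRCh38. Strand use and the annotation were not given in the sources used here. Each gene in the table was above 0 in at least 5 libraries. A floor of 3 counts corresponds to 0.355 CPM at the largest total and 0.709 CPM at the smallest. Chi-square per degree of freedom between 2 libraries of a group was 5.75 to 23.0, above counting noise, so each was kept as its own sample. Separate cultures are not stated in the labels, and the p-values then reflect only the spread between these libraries, which may be technical.

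Genes were kept by filterByExpr (minimum count 10, minimum total 15), scaled by TMM and tested in R 4.3.3 with edgeR 4.0.16 for stretch over static medium. P-values were adjusted by Benjamini and Hochberg's method, and the threshold was 0.05. CPM use TMM library sizes, log2 CPM a prior count of 2. Errors after a fold change are standard errors, those after CPM are SDs over 5 libraries, and intervals are 95%. The fit was tested on simulated data. Ratios were tested by exact two-sided permutation over 252 splits, which cannot give a p under 0.00794. Members and lists were chosen with earlier results of these data known. Values per library are given for members with an unadjusted p under 0.05, without overlap, at either end of a subgroup, among the 3 widest in spread, or among 6 textbook markers, 23 in all. For the other cell-cycle lists, the gene with the smallest p is named. Alternatives used DESeq2 1.42.0, limma 3.58.1, other scalings, filters and covariates, and each library left out. Symbols were found for 13625 identifiers. Positions of genes come from GENCODE release 29, build GRCh38. NUF2, CENPA, CCNA2, CDC25C, CDCA3 and SMC4 overlap other genes of the table, and CKS1B and AURKA have pseudogenes in it, so their counts are uncertain. Overlap here is of whole gene spans, and whether the amplified targets lie in the shared parts was not checked.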

Additional observations from a re-analysis of the deposited data

Results flagged for a closer look

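In 4 of the 66 groups of 5 values examined, 1 library lay far from the other 4, by the ratio of its gap to the group's range (Dixon's test, critical value 0.71). Chance alone gives this in about 1 in 20 groups that are independent and not chosen by their values. The groups here share the same 10 libraries, and many belong to genes named for their values. That rate is therefore no measure of how many flags to expect. KIF2C was at 57.5 CPM in stretch 6, and at 38.3 to 40.8 CPM in the other stretch libraries. UBE2C was at 287 CPM in static 7, and at 182 to 201 CPM in the other static libraries. CDCA2 was at 18.0 CPM in static 3, and at 25.2 to 26.6 CPM in the other static libraries. NUSAP1 was at 38.0 CPM in static 7, and at 52.6 to 57.3 CPM in the other static libraries. Without static 3, the log2 fold change of CDCA2 was -0.54, and without static 7 that of NUSAP1 was -0.46.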

How the results depend on the processing

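No member that was given an adjusted p passed 0.05 in any of the 10 other settings or the 10 fits that left out 1 library. DESeq2 gave none to CDC25C and HMMR. The members with an unadjusted p under 0.05 numbered 2 to 3 higher and 4 to 8 lower. Apart from DESeq2, the share of all tested genes in each of these fits is not given here. These counts therefore do not set the members apart from other genes. A stricter filter of 50 counts in 5 libraries left 38 members, without NDC80, CDC25C, AURKB and HMMR. The unadjusted p of TPX2 stayed under 0.05 in 13 of 20 other fits, and that of CDC25C in 12 of the 19 that kept it. It stayed so in all 20 for GTSE1, MKI67, CDCA2, HMGB2 and NUSAP1, and in all 19 for NDC80. These genes were picked by their p in the main fit, and the other fits reuse the same libraries, so such persistence is no separate support. How many other genes persist likewise is not given here. Over all genes the count of calls was 275 with DESeq2, 1 with limma-voom and 0 to 39 with a library left out (39 without stretch 4, 2 without stretch 6, 1 without stretch 10). The members' median log2 fold change was -0.13 to 0.017 with a library left out. Of the 42 members, 11 changed sign with a library left out. They were KIF11, KIF20B, KIF2C, CENPE, BUB1, CENPF, HJURP, CKS2, CDCA3, TOP2A and ECT2. The counts above and below 0 by subgroup thus rest on single libraries for kinesins and kinetochore genes. In part this also holds for cyclin-CDK genes (2 of 8 changed sign), chromatin genes (1 of 6) and cytokinesis genes (1 of 2). With a library left out, TOP2A ran from -0.074 to 0.047, KIF2C from -0.057 to 0.11 and ECT2 from -0.32 to 0.082. The differences in partner ratios that turned sign ran from -0.092 to 0.077 for CCNB1 over CCNB2, from -0.18 to 0.064 for AURKA over AURKB and from -0.088 to 0.18 for AURKB over BIRC5. No paired analysis was possible because the groups share no title number and the labels state no pairing. A fit that assumed one, with consecutive title numbers as a block, left 2 members higher and 4 lower at an unadjusted p under 0.05. The share of all genes in that fit is not given here either. Low counts limit CDC25C and HMMR most.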
